A study of Mus musculus with 10 samples.

Results

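The genes described here are those of macrophages, the tissue-resident phagocytes, and of microglia, their counterpart in the brain. They were measured in inner ear tissue of mice housed with or without a running wheel. Of 37 genes listed as markers or receptors of these cells, 36 had a probe set whose annotation gave a single gene symbol, out of 29766 genes measured. The 37th, Spi1, was annotated with an older second symbol and was not used. Each of the 36 had 1 probe set. The mice were CBA/CaJ, a strain with late loss of hearing, aged 6 months and with normal hearing, and all were housed singly. In the 5 samples called runners the cage held a wheel, and in the 5 samples called controls it did not. One microarray was run per sample on total RNA from powdered inner ear tissue, and values are log2 expression, so that a difference of 1 is a doubling. The study as a whole asks whether running over a long time affects age-related hearing loss, and the arrays cover young animals. The labels name no separate animal for each array, so the spread between arrays may be technical.

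Macrophages derive from embryonic precursors and from circulating monocytes. They live in the spiral ligament, the stria vascularis and the spiral ganglion of the cochlea, and they depend on signalling through the receptor Csf1r. Several activating receptors of these cells, among them Fcgr1, Fcgr3 and Trem2, pass their signal through the adaptors Fcer1g or Tyrobp, while Clec7a carries a signalling motif in its own tail. Long-lived resident and perivascular macrophages carry scavenger receptors such as Mrc1 and Cd163, while P2ry12 and Tmem119 are used to tell microglia from other macrophages.

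The arrays were alike in scale, with medians of 5.35 to 5.43 over all genes and correlations across genes of 0.991 to 0.997 within groups and 0.992 to 0.996 between them. Cochlear markers had a mean log2 level in controls of 5.15 over 10 hair cell genes and 6.82 over 8 genes of the stria vascularis. The hair cell mean was below the median of all genes in every array. No detection threshold was set, so the presence of hair cell RNA was not shown. Markers of brain (8 genes, 8.11), neutrophils (14 genes, 8.82), erythroid cells (8 genes, 8.36) and skeletal muscle (7 genes, 8.62) had higher means than both. The samples may thus hold more than the cochlea. In such bulk samples, fewer macrophages and less of an RNA in each macrophage cannot be told apart. The number of arrays limits the precision.

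Macrophage genes had lower means in runners almost without exception, by small amounts, and none passed the test. The difference was below 0 for 34 of 36 genes (49.5% of all genes), with a median of -0.17, against 0.00091 over all genes. Of the 36, 11 were lower at an unadjusted p under 0.05 (3.92% of all genes) and 1, Lyve1, was higher (3.21% of all genes). After adjustment over all genes, 0 of the 36 passed limma's test at 0.05 (0.00672% of all genes passed), and the adjusted p ran from 0.536 to 0.992. All 5 runners lay below all 5 controls for 1 gene, P2ry12 (0.548% of all genes), and above them for 0 genes (0.38% of all genes).

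Runner 1 stood apart from the other runners in these genes. It was the highest of the 5 runners for 31 of the 36 genes (33.9% of all genes), and it lay above the mean of the controls for 28. Runners 2 to 5 lay above that mean for 5, 3, 5 and 3 of the 36. Counts above the control mean were not made over all genes, so no share stands beside them. Among controls, control 1 was the lowest for 24 of the 36 (19.2% of all genes) and control 4 the highest for 17 (16.9% of all genes). Averaged over the 36 genes, the log2 level was 6.23, 6.43, 6.39, 6.49 and 6.42 in controls 1 to 5 and 6.52, 6.20, 6.14, 6.17 and 6.12 in runners 1 to 5. The mean of runner 1 was thus above that of every control, and the means of runners 2 to 5 were below that of every control. Runners 2 to 5 lay below all 5 controls for 11 of the 36 genes (3.33% of all genes) and above all of them for 0 (2.49% of all genes). These 4 runners were set apart after the values were seen.

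**Figure D1:**
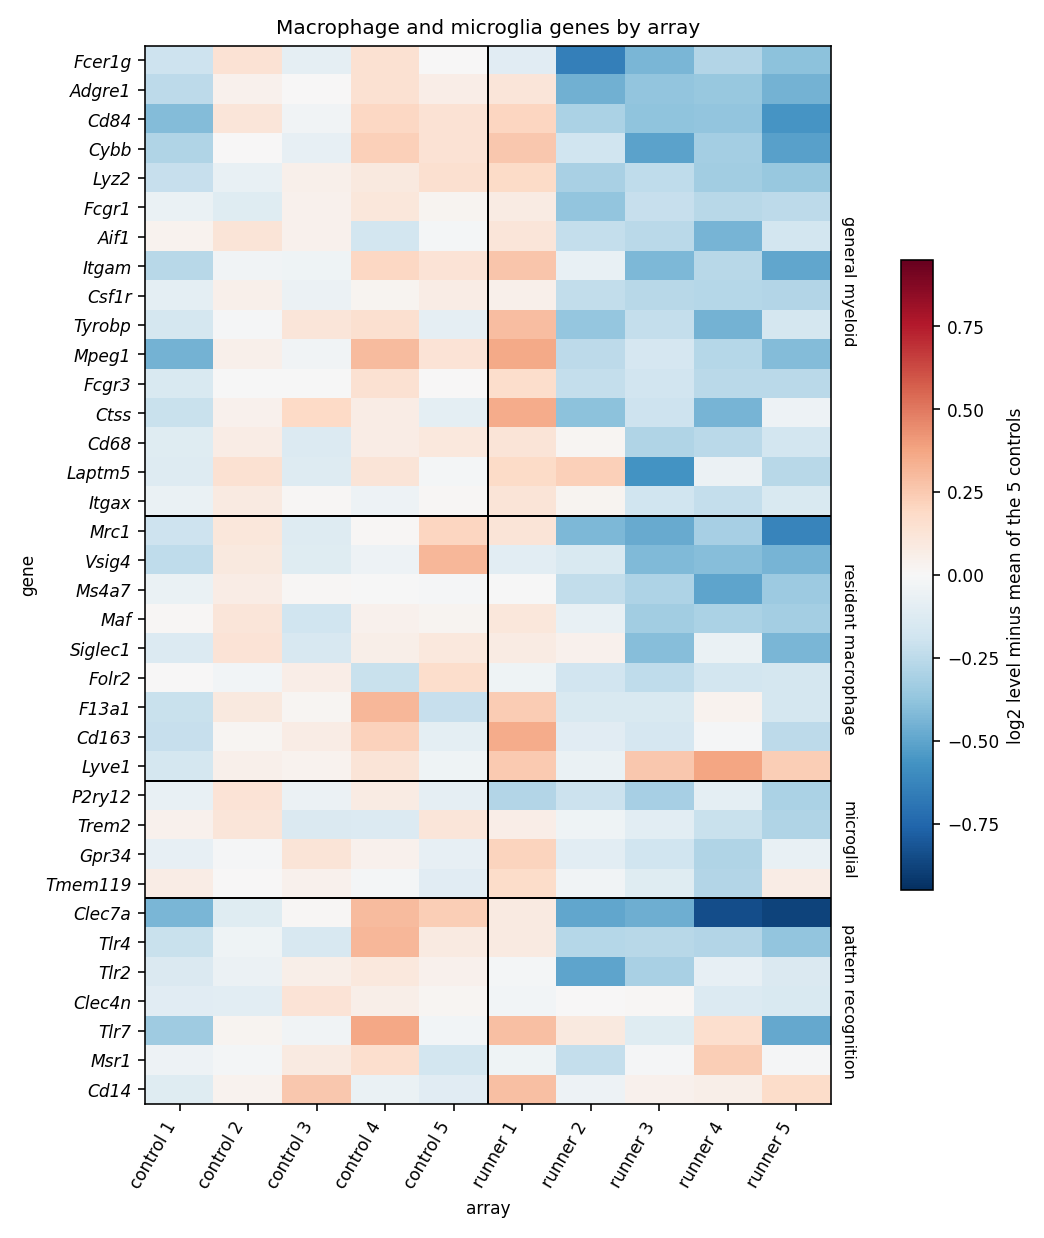
Heat map of the 36 macrophage and microglia genes (rows, in 4 groups by role) in the 10 arrays (columns); colour gives the log2 level minus the mean of the 5 controls for that gene. Runners 2 to 5 are blue for most genes, while runner 1 is above the control mean for 28 of 36 and control 1 is above it for 5. These counts were not made over all genes.

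The 250 bases before the transcription start were searched for sequence motifs of the transcription factor PU.1, the myeloid regulator that Spi1 encodes, and of AP-1. RefSeq promoters (GRCm38.p6), matched by symbol, were used for 23 of the 37 genes, with 1 window a gene at its most upstream start. Members on the chromosome that holds Csf1r and Cd14 were left out, a filter not applied to the windows of all genes. GAGGAA, a purine-rich core bound by PU.1 and other ETS factors, was found on either strand in 12 of 23 windows, or 52.2%, against 23.1% of 27025 windows. The longer form GAGGAAGT, which contains GAGGAA, was in 0 of 23 windows, against 2.42% of all. The AP-1 motif TGACTCA was in 3 of 23 windows, against 4.43% of all. A match describes the letters in the window and is not a bound site. Whether these motifs bear on the levels in runners was not tested. Of these 23 genes, the 6 with the lowest unadjusted p have their windows printed 5′ to 3′ on the gene's strand. GAGGAA or its reverse complement TTCCTC is in capitals there. Fcer1g (chr1:171234350-171234599, minus strand), P2ry12 (chr3:59262986-59263235, minus strand) and Ms4a7 (chr19:11336147-11336396, minus strand) have 0 matches. Vsig4 (chrX:96293439-96293688, minus strand) has 2, Clec7a (chr6:129472786-129473035, minus strand) has 1 and the mannose receptor gene Mrc1 (chr2:14229164-14229413, plus strand) has 3.
Fcer1g: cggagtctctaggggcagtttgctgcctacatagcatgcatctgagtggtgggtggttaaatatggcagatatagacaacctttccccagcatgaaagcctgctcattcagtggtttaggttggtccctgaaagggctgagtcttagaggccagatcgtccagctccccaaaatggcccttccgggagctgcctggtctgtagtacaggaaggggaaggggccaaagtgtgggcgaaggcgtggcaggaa
P2ry12: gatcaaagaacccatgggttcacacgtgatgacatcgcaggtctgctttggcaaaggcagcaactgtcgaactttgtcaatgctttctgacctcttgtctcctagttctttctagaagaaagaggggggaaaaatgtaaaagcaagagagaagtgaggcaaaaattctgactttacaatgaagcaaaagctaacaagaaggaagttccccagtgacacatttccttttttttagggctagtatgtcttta
Ms4a7: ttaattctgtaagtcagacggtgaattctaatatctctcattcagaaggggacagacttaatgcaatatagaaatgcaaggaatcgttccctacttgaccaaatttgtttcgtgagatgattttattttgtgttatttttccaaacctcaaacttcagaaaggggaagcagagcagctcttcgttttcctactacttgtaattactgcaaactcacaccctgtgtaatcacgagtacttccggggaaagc
Vsig4: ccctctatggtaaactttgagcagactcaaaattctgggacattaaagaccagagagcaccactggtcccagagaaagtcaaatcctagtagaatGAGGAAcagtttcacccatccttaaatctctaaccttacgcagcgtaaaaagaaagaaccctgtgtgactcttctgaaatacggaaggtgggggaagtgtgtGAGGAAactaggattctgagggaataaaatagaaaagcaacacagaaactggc
Clec7a: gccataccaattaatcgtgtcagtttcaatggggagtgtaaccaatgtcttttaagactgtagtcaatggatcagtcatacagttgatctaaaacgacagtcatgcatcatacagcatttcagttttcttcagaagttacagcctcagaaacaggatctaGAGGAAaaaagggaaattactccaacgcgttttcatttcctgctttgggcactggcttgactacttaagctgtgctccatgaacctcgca
Mrc1: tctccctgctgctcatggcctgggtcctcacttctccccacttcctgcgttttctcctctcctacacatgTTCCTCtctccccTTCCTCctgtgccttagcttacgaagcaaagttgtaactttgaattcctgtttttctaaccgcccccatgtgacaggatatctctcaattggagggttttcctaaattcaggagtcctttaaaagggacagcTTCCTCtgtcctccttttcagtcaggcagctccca
All 3 matches of Mrc1 are on the opposite strand, beginning 180, 167 and 35 bases before the start. The match of Clec7a begins 90 bases before the start, and those of Vsig4 begin 155 and 53 bases before it.

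Genes of macrophages in general, shared with monocytes and in part with neutrophils, had lower means in runners for 16 of 16 measured (49.5% of all genes). Of these, 4 were at an unadjusted p under 0.05 (3.92% of all genes) and 0 passed, and the median difference was -0.20. Fcer1g, the gamma chain through which activating antibody receptors signal, had the smallest p of the 36 genes. Its log2 level was 7.68, 8.01, 7.79, 8.02 and 7.88 in controls 1 to 5 and 7.77, 7.23, 7.44, 7.60 and 7.49 in runners 1 to 5. Only runner 1 reached the range of the controls, above control 1. Controls averaged 7.88 ± 0.14 (SD, n = 5) and runners 7.51 ± 0.20 (SD, n = 5). The difference was -0.37 ± 0.098 (SE, as after every difference given here) or 1.29-fold (limma adjusted p = 0.536).

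Adgre1 encodes the surface protein used as the classical marker of mouse macrophages. It was measured at 5.81, 6.10, 6.06, 6.20 and 6.12 in controls and 6.17, 5.60, 5.68, 5.70 and 5.61 in runners. Runner 1 lay above all controls but control 4, and the other 4 runners lay below every control. The difference was -0.31 ± 0.11 (limma adjusted p = 0.607). Csf1r, the receptor for the growth factors that keep macrophages alive, stood at 7.20, 7.34, 7.24, 7.32 and 7.36 in controls and 7.34, 7.06, 7.03, 7.02 and 7.01 in runners. As for Adgre1, 4 closely spaced runners lay below all controls and runner 1 inside the range of the controls. Csf1r differed by -0.20 ± 0.071 (limma adjusted p = 0.607).

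Fcgr1, the high-affinity receptor for immunoglobulin G, which signals through Fcer1g, was at 5.33, 5.28, 5.43, 5.50 and 5.42 in controls and 5.47, 5.02, 5.17, 5.13 and 5.14 in runners. The other 4 runners than runner 1 again lay below every control, and the difference was -0.21 ± 0.081 (limma adjusted p = 0.631). Fcgr3, another receptor that uses Fcer1g, also had 4 runners below every control, with a smaller difference of -0.15 ± 0.085. Tyrobp, the other adaptor, differed by -0.18 ± 0.12, and its runner 1 value of 8.57 was above every control. Aif1, the calcium-binding protein used to stain macrophages and microglia, was at 5.53, 5.62, 5.54, 5.32 and 5.48 in controls and 5.61, 5.27, 5.24, 5.06 and 5.32 in runners. Here control 4 was the low control, and runners 2 and 5 lay close to it. Aif1 differed by -0.20 ± 0.092 (limma adjusted p = 0.700).

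Lyz2, lysozyme of macrophages and neutrophils, was at 11.20, 11.35, 11.47, 11.51 and 11.57 in controls and 11.60, 11.11, 11.18, 11.09 and 11.06 in runners, a difference of -0.21 ± 0.11 (limma adjusted p = 0.707). Runner 1 held the highest value of all 10 arrays and runners 2 to 5 the 4 lowest. Lyz2 has a close copy, Lyz1, whose transcripts can bind the same probes, so the source of this signal is uncertain. The SLAM family receptor Cd84 differed by -0.28 ± 0.14 and Cybb, the catalytic subunit of the phagocyte NADPH oxidase, by -0.25 ± 0.14. The integrin chain Itgam, shared with neutrophils, differed by -0.20 ± 0.13. The pore-forming protein Mpeg1 (-0.15 ± 0.15), the lysosomal protease Ctss (-0.15 ± 0.13) and the lysosomal glycoprotein Cd68 (-0.11 ± 0.087) differed by less. The differences closest to 0 were those of Laptm5 (-0.094 ± 0.13), a lysosomal protein of blood cells, and of Itgax (-0.079 ± 0.072), an integrin chain of dendritic cells and some macrophages. For the 10 genes of this group given by their difference alone, the limma adjusted p was between 0.709 and 0.906.

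**Figure D2:**
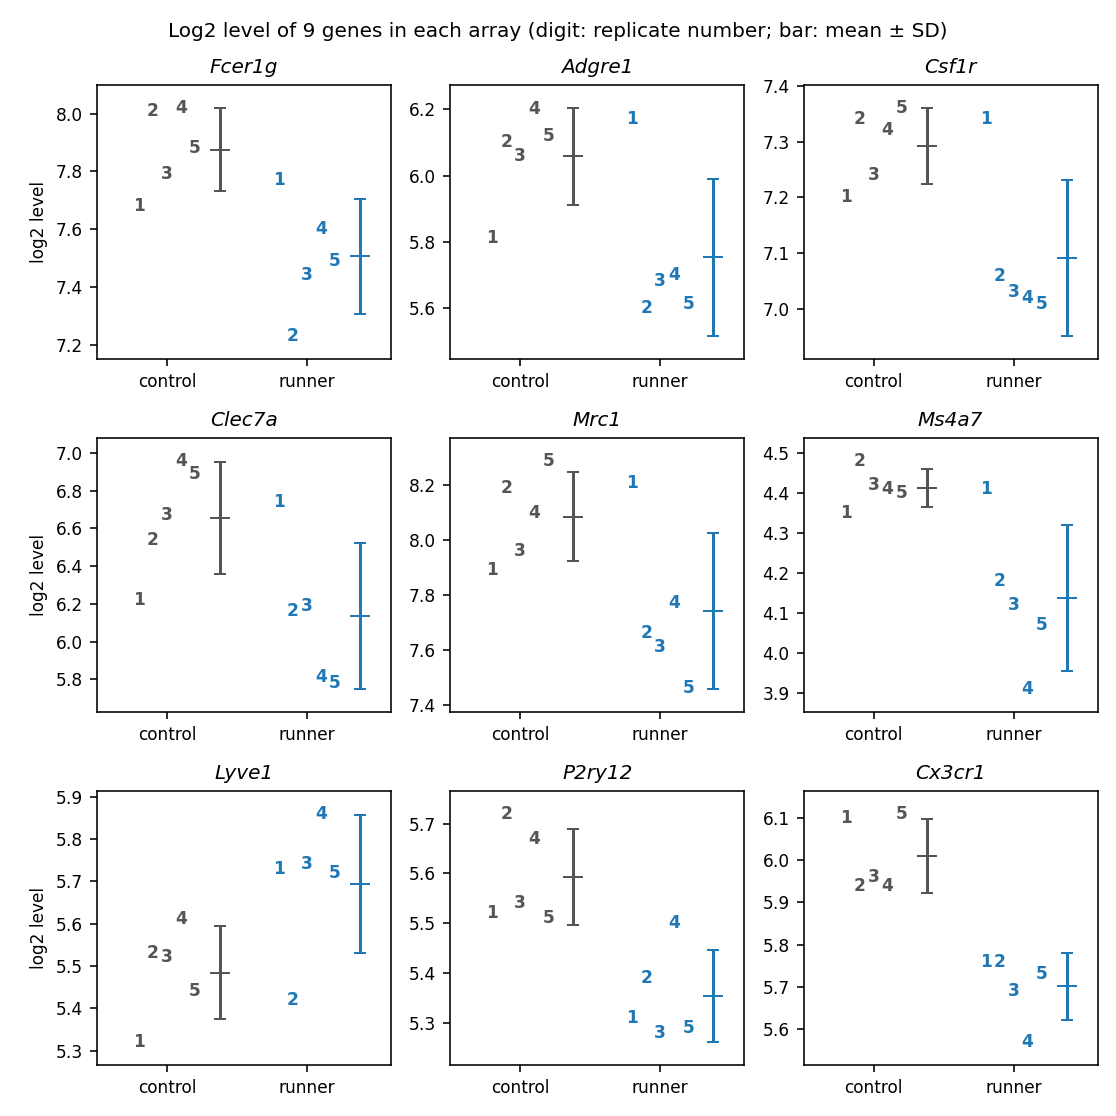
Log2 level of 8 member genes and of the receptor gene Cx3cr1 in each array; digits are replicate numbers, and bars give the mean ± SD of 5 arrays. In Adgre1, Csf1r, Mrc1, Ms4a7 and Clec7a runner 1 lies with the controls, whereas in P2ry12 and Cx3cr1 it lies with the other runners, below every control.

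Resident macrophage genes had lower means in runners for 8 of 9 (49.5% of all genes), and a higher one for Lyve1, with a median of -0.16. At an unadjusted p under 0.05, 4 were lower (3.92% of all genes) and 1 higher (3.21% of all genes), and 0 passed the adjusted test. Ms4a7, a membrane-spanning protein of tissue macrophages, was at 4.35, 4.48, 4.42, 4.41 and 4.40 in controls and 4.41, 4.18, 4.12, 3.91 and 4.07 in runners. The controls lay close together, runner 1 inside their range and the other runners below it. This gene was dim, with every value below the array medians over all genes (5.35 to 5.43). The difference was -0.27 ± 0.080 (limma adjusted p = 0.583). Mrc1, which takes up mannosylated glycoproteins, was at 7.89, 8.19, 7.96, 8.10 and 8.29 in controls and 8.21, 7.66, 7.61, 7.77 and 7.46 in runners. Its difference was -0.34 ± 0.13 or 1.27-fold (limma adjusted p = 0.607), with runner 1 above 4 of the controls and the other 4 runners below all of them.

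Vsig4, a receptor for fragments of complement C3 on resident macrophages, was at 3.76, 4.09, 3.88, 3.95 and 4.31 in controls and 3.90, 3.85, 3.58, 3.59 and 3.56 in runners. Controls 1 and 3 lay among the runners and control 5 above the rest. Vsig4 was dim too, with every value below the array medians over all genes (5.35 to 5.43). The difference was -0.30 ± 0.11 (limma adjusted p = 0.607). Folr2, a folate receptor of perivascular macrophages, was at 5.21, 5.18, 5.27, 4.99 and 5.37 in controls and 5.16, 5.02, 4.96, 5.03 and 5.04 in runners. Only control 4 of the controls lay among the runners, whose 5 values spanned 4.96 to 5.16, and Folr2 differed by -0.16 ± 0.071 (limma adjusted p = 0.691).

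Maf, a transcription factor of resident macrophages that other cell types also express, was at 8.75, 8.86, 8.55, 8.78 and 8.77 in controls and 8.85, 8.67, 8.41, 8.44 and 8.42 in runners, a difference of -0.18 ± 0.091. Runners 3 to 5 were below every control. Siglec1, the sialic acid receptor sialoadhesin, was at 6.04, 6.30, 6.02, 6.23 and 6.27 in controls and 6.25, 6.21, 5.77, 6.11 and 5.74 in runners, with groups that overlapped, and differed by -0.16 ± 0.11 (limma adjusted p = 0.783). The haemoglobin scavenger receptor Cd163 (-0.036 ± 0.11) and F13a1 (-0.038 ± 0.11), the A chain of coagulation factor XIII, differed by less than their standard errors.

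Lyve1, the hyaluronan receptor of perivascular macrophages and of lymphatic endothelium, ran the other way. It was at 5.32, 5.53, 5.52, 5.61 and 5.44 in controls and 5.73, 5.42, 5.74, 5.86 and 5.72 in runners, so that 4 runners lay above every control and runner 2 among them. The means were 5.49 ± 0.11 (SD, n = 5) and 5.69 ± 0.16 (SD, n = 5), a difference of 0.21 ± 0.082 (limma adjusted p = 0.639). Of 5 other genes of lymphatic endothelium, 2 had higher means in runners, the secreted glycoprotein gene Reln (0.32 ± 0.12) and the transcription factor gene Prox1 (0.092 ± 0.079). The platelet and endothelial protein gene Mmrn1 (-0.29 ± 0.099) and Pdpn (-0.15 ± 0.066) had lower ones, and the mean of the list was 6.55 to 6.61 in controls and 6.48 to 6.65 in runners. Reln had the highest control mean of the 5 genes, 8.19, and genes of brain averaged 8.11 in controls. The part of lymphatic vessels in the Lyve1 signal was not tested, nor was that of brain tissue in the Reln signal.

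Microglial genes had lower means in runners for 4 of 4 (49.5% of all genes), with a median of -0.099. At an unadjusted p under 0.05, 1 gene was lower (3.92% of all genes), and 0 passed the adjusted test. P2ry12, the receptor for ADP that steers microglial processes, was at 5.52, 5.72, 5.54, 5.67 and 5.51 in controls and 5.31, 5.39, 5.28, 5.50 and 5.29 in runners. Every runner lay below every control, though runner 4 and control 5 nearly met. Runner 1, high in most of the other genes, was among the 3 lowest arrays. The means were 5.59 ± 0.10 (SD, n = 5) and 5.35 ± 0.09 (SD, n = 5), a difference of -0.24 ± 0.064 or 1.18-fold (limma adjusted p = 0.540). P2ry12 is also expressed by platelets, and 5 of 5 marker genes of megakaryocytes and platelets had lower means in runners too, with runner 1 (mean 8.15) below every control (8.18 to 8.57). The part of platelets in the P2ry12 signal was not tested.

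Trem2, a lipid receptor that signals through Tyrobp, was at 5.04, 5.11, 4.86, 4.87 and 5.11 in controls and 5.06, 4.96, 4.90, 4.79 and 4.71 in runners. The groups overlapped and differed by -0.11 ± 0.080 (limma adjusted p = 0.784). Gpr34, a receptor for lysophosphatidylserine, was at 3.41, 3.48, 3.61, 3.53 and 3.41 in controls and 3.70, 3.39, 3.30, 3.20 and 3.42 in runners, where runner 1 was the highest of all 10 arrays and runners 2 to 4 the 3 lowest. Gpr34 differed by -0.087 ± 0.085. Trem2 and Gpr34 were dim, with every value below the array medians over all genes (5.35 to 5.43). Tmem119, a membrane protein of microglia and also of bone-forming cells, differed by -0.038 ± 0.080 (limma adjusted p = 0.945), less than its standard error. The median of these 4 genes moved to -0.16 without runner 1 and to -0.063 without runner 4. Genes of brain neurons and glia had higher means in runners for 7 of 8 (median 0.11), as 15024 of all 29766 genes did. Of these 7, 1 was at an unadjusted p under 0.05 (3.21% of all genes). The part of brain tissue in the signal of the 4 microglial genes was not tested.

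Receptors for microbial patterns had lower means in runners for 6 of 7 genes (49.5% of all genes), with a median of -0.061. Of the 6, 2 were at an unadjusted p under 0.05 (3.92% of all genes), and 0 passed the adjusted test. Clec7a, the receptor dectin-1 for fungal glucans, had the largest difference of the 36 genes. It was at 6.22, 6.54, 6.67, 6.96 and 6.89 in controls and 6.74, 6.16, 6.19, 5.81 and 5.78 in runners. Runners 2 to 5 lay below every control, runners 4 and 5 by the most, while runner 1 lay above controls 1 to 3. The means of 6.66 ± 0.30 (SD, n = 5) and 6.14 ± 0.39 (SD, n = 5) gave a difference of -0.52 ± 0.18 or 1.43-fold (limma adjusted p = 0.607).

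Tlr2, which senses bacterial lipoproteins, was at 6.12, 6.20, 6.31, 6.36 and 6.30 in controls and 6.24, 5.76, 5.95, 6.18 and 6.12 in runners and differed by -0.21 ± 0.089 (limma adjusted p = 0.672). Runner 2 was the lowest, runners 1 and 4 lay inside the range of the controls and runner 5 at its lower edge. Tlr4, the receptor for lipopolysaccharide, was at 5.56, 5.73, 5.62, 6.09 and 5.86 in controls and 5.86, 5.50, 5.51, 5.49 and 5.40 in runners, with a difference of -0.22 ± 0.11 (limma adjusted p = 0.704). Here runner 1 was level with control 5, and runners 2 to 5 were below every control. Cd14, which hands lipopolysaccharide to Tlr4, was the other gene of the 36 with a higher mean in runners. It was at 5.25, 5.40, 5.62, 5.30 and 5.26 in controls and 5.65, 5.32, 5.41, 5.42 and 5.54 in runners. Runner 1 lay just above the highest control and the other runners inside the range of the controls, and Cd14 differed by 0.099 ± 0.084 (limma adjusted p = 0.819). The dectin-2 gene Clec4n (-0.061 ± 0.063), the scavenger receptor gene Msr1 (-0.0096 ± 0.086) and Tlr7 (-0.013 ± 0.15), a sensor of single-stranded RNA, differed by less than their standard errors. The sign of Msr1 and Tlr7 turned when arrays were centred on their medians, to 0.014 and 0.010, and that of Tlr7 also with quantile normalization repeated, to 0.018. Without control 3 the median of the 7 genes was -0.027, without runner 5 -0.038, and without control 1 -0.096.

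Set side by side, the medians were -0.20 for general myeloid, -0.16 for resident, -0.099 for microglial and -0.061 for pattern recognition genes, and differences between these groups of genes were not tested. Without runner 1 they were -0.28, -0.22, -0.16 and -0.087. Their order depended on the setting. With array weights the median was lower for resident (-0.25) than for general myeloid genes (-0.24), as it was without runner 2 (-0.21 and -0.18) and without control 3 or control 4 (-0.20 and -0.19, -0.17 and -0.16). Without runner 1 and control 1 the median was lower for pattern recognition (-0.17) than for microglial genes (-0.16), as it was without runner 4 (-0.070 and -0.063). The count of members at an unadjusted p under 0.05 and lower in runners was 23 of 36 without runner 1 (8.59% of all genes) and included the 11 found with all arrays. None of the 36 passed limma's adjusted test without runner 1 (0.185% of all genes passed as lower and 0.148% as higher). The smallest limma adjusted p values then were 0.0507 for Ms4a7 (-0.34 ± 0.063), 0.0509 for Adgre1 (-0.41 ± 0.077) and 0.0544 for Mrc1 (-0.46 ± 0.090). Of these, Ms4a7 was dim, below the median over all genes in every array. Clec7a differed by -0.67 ± 0.15. P2ry12 and Lyve1 kept their size, at -0.23 ± 0.069 and 0.20 ± 0.089. With control 1 left out as well, 9 of the 36 passed, all lower in runners (0.981% of all genes passed as lower and 0.45% as higher), and 25 were lower at an unadjusted p under 0.05 (9.07% of all genes). They were Adgre1, Csf1r, Fcer1g, Lyz2, Cd84, Cybb, Mrc1, Ms4a7 and Clec7a, at limma adjusted p of 0.0221 to 0.0465. Both arrays were picked for that setting because they lay against their groups in these same genes, so it adds no independent evidence.

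**Figure D3:**
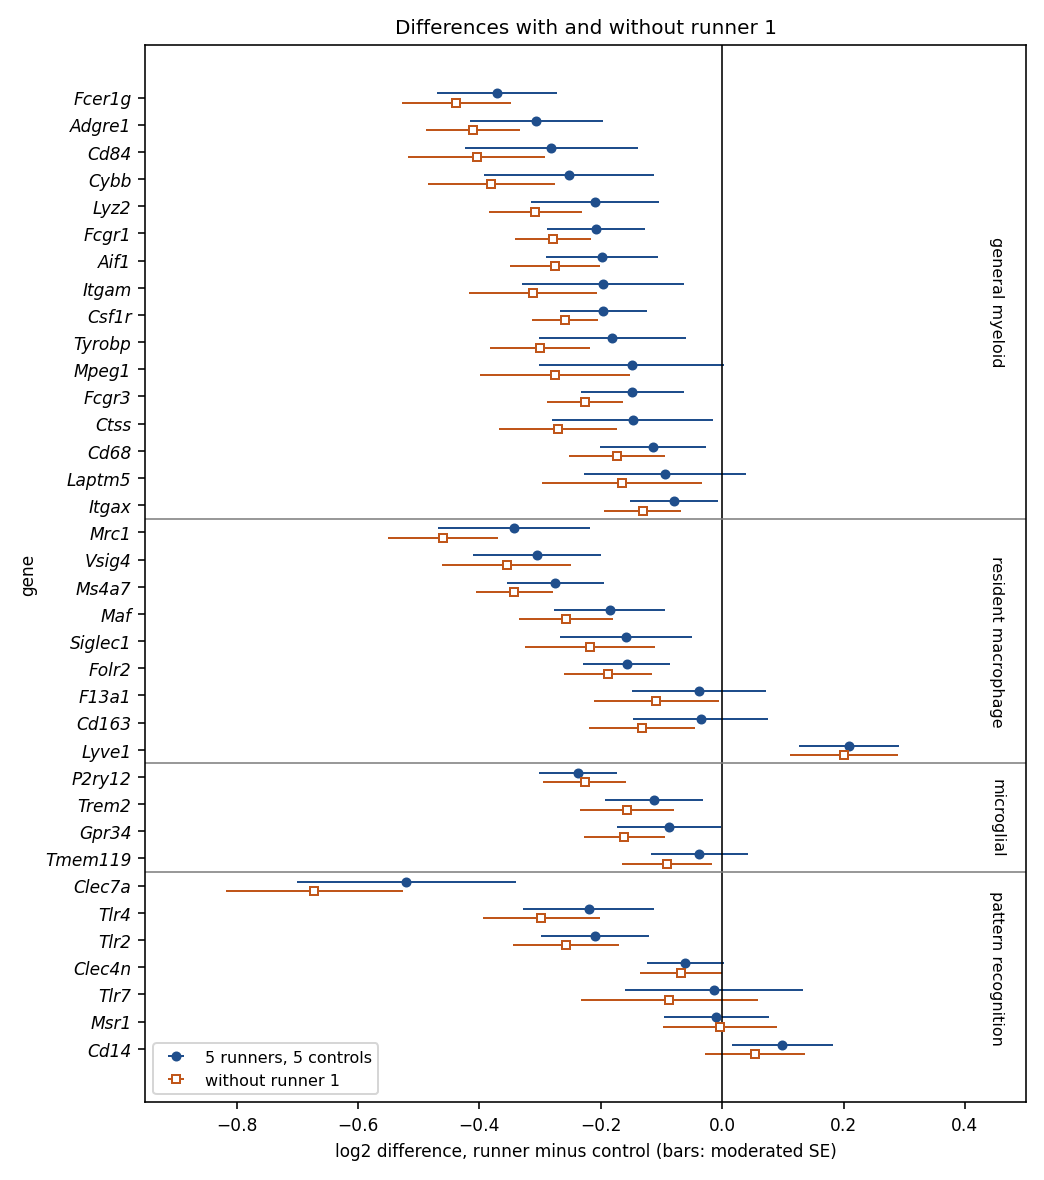
Log2 difference, runner minus control, of the 36 genes in 4 groups by role, with all 10 arrays (filled circles) and without runner 1 (open squares); bars are moderated standard errors. Most differences lie below 0 and move further from it without runner 1, while Lyve1 lies above 0 and P2ry12 hardly moves.

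Genes around these members were read from the same fit: 45 of 53 listed growth factors, receptors, regulators and effectors of macrophages were measured. Of the 45, 35 had lower means in runners (49.5% of all genes), and 0 passed (0.00672% of all genes). At an unadjusted p under 0.05, 8 were lower (3.92% of all genes) and 0 higher (3.21% of all genes). The same shares are those to set beside the counts of the lists below. Among growth factors and chemokines, 4 of 6 had higher means, as 15024 of all 29766 genes did. The means of Ccl2 (0.24 ± 0.15), a chemokine for monocytes, and Csf2 (0.11 ± 0.071) were higher in runners and that of Tgfb1 (-0.19 ± 0.11) lower. Csf1 and Il34, the ligands of Csf1r, differed by -0.073 ± 0.081 and 0.037 ± 0.069. The median of these 6 genes was 0.072.

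Among 11 other receptors, 7 had lower means (49.5% of all genes), with a median of -0.14. Of these, 2 were at an unadjusted p under 0.05 (3.92% of all genes). Cx3cr1, the fractalkine receptor of microglia and monocytes, was at 6.10, 5.94, 5.96, 5.94 and 6.11 in controls and 5.76, 5.76, 5.69, 5.57 and 5.73 in runners. All runners lay below all controls, runner 1 included, as for P2ry12, and the difference was -0.31 ± 0.061 (limma adjusted p = 0.279). The complement receptor gene C3ar1 was at 4.54, 4.92, 4.57, 4.92 and 4.93 in controls and 4.63, 4.42, 4.36, 4.27 and 4.44 in runners and differed by -0.35 ± 0.097 (limma adjusted p = 0.564). Its runners 2 to 5 were below every control, and all its values were below the array medians over all genes. Mertk, a receptor for the uptake of dying cells, differed by 0.14 ± 0.092.

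All 8 measured signalling genes downstream of these receptors had lower means in runners, 5 at an unadjusted p under 0.05, with a median of -0.23. The kinase gene Btk (-0.33 ± 0.12), Plcg2 (-0.30 ± 0.11) and the kinase gene Syk (-0.32 ± 0.13) came first. B cells express all 3 as well. Of 9 transcription factors 7 had lower means (median -0.10), with Irf8 (-0.19 ± 0.091) and Sall1 (-0.23 ± 0.11) first and Cebpb at 0.16 ± 0.087. All 11 effector genes had lower means (median -0.13), 1 at an unadjusted p under 0.05, the lysosomal glycoprotein gene Gpnmb (-0.24 ± 0.095), before C1qb (-0.26 ± 0.13) and C1qa (-0.19 ± 0.093), chains of complement C1q. The smallest limma adjusted p in these 3 groups was 0.607.

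Lower means in runners were also found for most markers of some other blood cells, against 49.5% of all genes. Means were lower in runners for 13 of 14 neutrophil genes (median -0.13), 8 of 8 erythroid genes (-0.21), 11 of 11 B lineage genes (-0.42) and 5 of 5 genes of megakaryocytes and platelets (-0.35). For neutrophils Ly6g (-0.39 ± 0.12) and Prtn3 (-0.24 ± 0.087) had the smallest p, for erythroid cells Car1 (-0.31 ± 0.12) and Alas2 (-0.25 ± 0.10). Those of the B lineage were Fcrla (-0.71 ± 0.11) and Cd72 (-0.62 ± 0.098), and those of platelets Ppbp (-0.39 ± 0.076) and Pf4 (-0.31 ± 0.080). Of 6 monocyte genes 4 had lower means (median -0.12), with Ly6c2 (-0.25 ± 0.11) and Plac8 (-0.23 ± 0.14) first. None of these genes passed the adjusted test.

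The lists differed in where runner 1 lay, the array with the lowest weight in limma's array weights (0.468, against 0.574 to 2.02 in the others). Its mean over the neutrophil genes was 9.09, against 8.52 to 8.61 in runners 2 to 5 and 8.57 to 9.0 in controls. Over the erythroid genes it was 8.46, against 7.92 to 8.26 and 8.10 to 8.58. Over the genes of megakaryocytes and platelets it was 8.15, below every control (8.18 to 8.57), as all other runners were (7.90 to 8.17). B lineage genes had 6.47 in runner 1, 5.95 to 6.42 in the other runners and 6.47 to 6.83 in controls. The brain list had 7.96 in runner 1, the lowest of all 10 arrays, against 8.14 to 8.47 in runners 2 to 5 and 7.97 to 8.22 in controls. Gabra6 of cerebellar granule cells (0.24 ± 0.13) and Mobp of oligodendrocytes (0.25 ± 0.094) had the smallest p in it. Runner 1 was also above runners 2 to 5 in the means of the lists for T and NK cells (5.28, against 4.94 to 5.07), osteoclasts (6.26, against 6.04 to 6.10), monocytes (6.91, against 6.57 to 6.77), hair cells (5.20, against 4.82 to 5.03) and stria vascularis (6.83, against 6.42 to 6.68). Among these it lay above every control for T and NK cells (4.95 to 5.16). The part of array quality, marrow, blood and brain in the macrophage values was not tested.

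Medians were near 0 in the lists of osteoclasts (0.00018, 7 genes, with Ctsk at -0.21 ± 0.12 and Calcr at 0.14 ± 0.076), dendritic cells (-0.028, 8 genes, with Ccr7 at -0.14 ± 0.085 and Zbtb46 at 0.15 ± 0.10) and T and NK cells (0.033, 9 genes, with Cd8a at 0.17 ± 0.073 and Il7r at -0.27 ± 0.15). The mean differences of the osteoclast and T cell lists had the other sign, -0.0049 and -0.0031. Osteoclasts are bone-resorbing cells of the macrophage lineage. Skeletal muscle genes had a median of -0.052, with Myh1 (-0.12 ± 0.19) and Tnnt3 (-0.11 ± 0.20) first. Of cochlear markers, 10 of 10 hair cell genes had lower means in runners (median -0.13, with Ocm at -0.32 ± 0.12 and Slc26a5 at -0.21 ± 0.090). These genes were dim, with a mean level below the median of all genes. Means were also lower for 7 of 8 stria vascularis genes (median -0.29, with Cldn11 at -0.25 ± 0.064 and Tyr at -0.37 ± 0.11). Lower means in runners, found for 49.5% of all genes, were thus not limited to macrophage genes, and none of these genes passed the adjusted test.

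**Figure D4:**
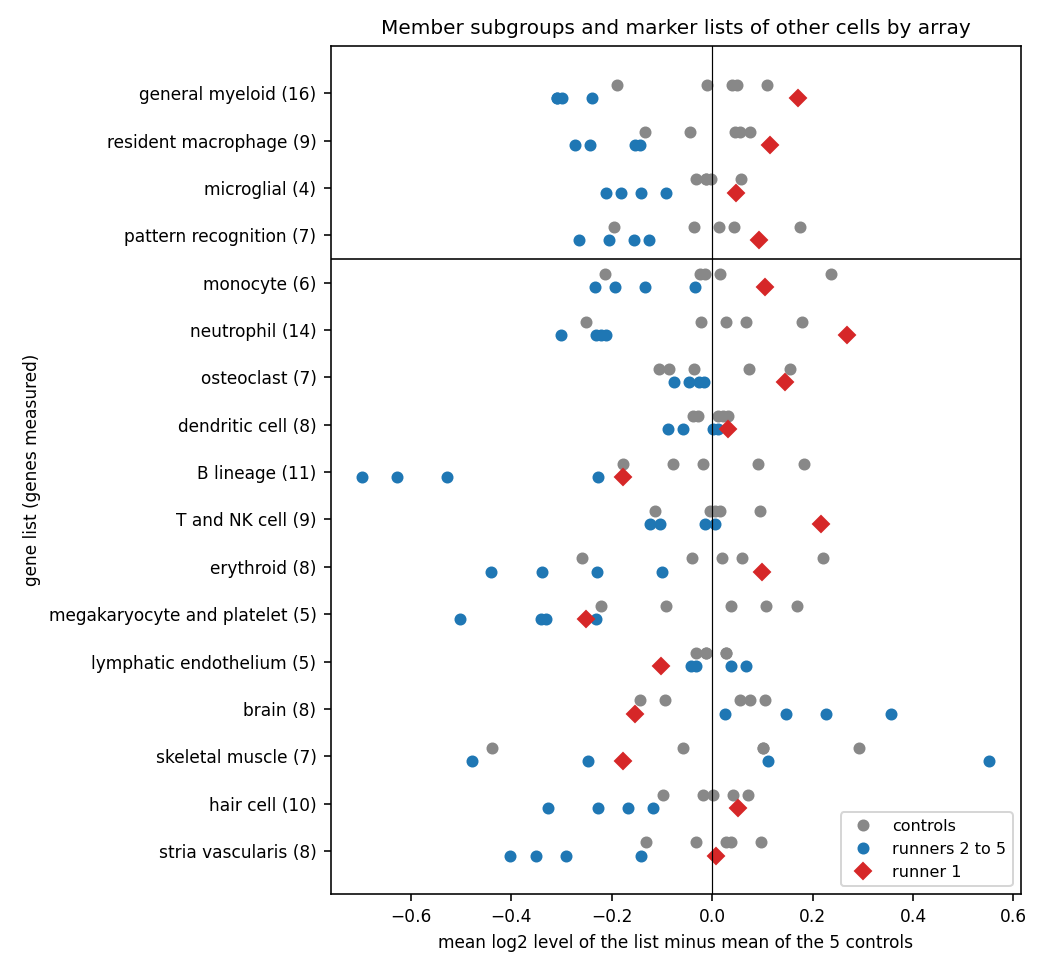
Mean log2 level of each list in each array minus the mean of the 5 controls (horizontal axis), for the 4 groups of macrophage and microglia genes (above the line) and markers of 13 other cell types or tissues; numbers of genes are in brackets. Runners 2 to 5 lie left of the controls in the first 3 lists, while runner 1 lies right of 0 there and among neutrophil and erythroid genes, but left of 0 for B lineage, platelet and brain genes.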

How the data were processed

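Inner ear RNA of 10 samples was labelled with biotin (WT PLUS kit of Affymetrix, per the labels). The authors deposited log2 values, 1 for each transcript cluster. Per the submitters' processing notes, RMA (background correction, quantile normalization and a summary of probes) and Partek were used. Chip and build: not given in the sources used here. Quantile normalization hides a change shared by most genes, and RMA understates fold changes of dim genes.

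Of 39295 probe sets, 30130 had 1 symbol, 2146 several and 7019 none. Symbols were updated through Entrez identifiers (827 probe sets), and of several probe sets for a gene the brightest was kept, leaving 29766 genes. Runners were compared with controls by limma 3.58.1 under R 4.3.3, using lmFit and eBayes with group alone, two-sided tests, Benjamini-Hochberg adjustment over all genes and a threshold of 0.05. The fit was tested on simulated data first. Differences are runner minus control with moderated standard errors. Python 3.11.15 and matplotlib 3.10.9 drew the figures.

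The members, their 4 groups and the other lists were chosen with earlier results of these data known. Values in every array are given for members at an unadjusted p under 0.05 and for up to 2 more of each group by smallest p, then 3 genes of each pathway list and 2 of each other list by smallest p. Some others are named by their role. Alternatives were a filter on dim genes, other moderation, normalization, centring, array weights, the mean of a gene's probe sets, a replicate block, and each array left out. Leaving out runner 1 and control 1 together was added after the values were seen.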

Additional observations from a re-analysis of the deposited data

Results flagged for a closer look

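Runner 1 lay far above the other 4 runners in 5 of the 36 genes, by the gap to its nearest neighbour relative to the range of the group. Its log2 level was 6.17 for Adgre1 against 5.60 to 5.70 in the other runners, and 7.34 for Csf1r against 7.01 to 7.06. It was 6.89 for Fcgr3 against 6.47 to 6.54, 11.60 for Lyz2 against 11.06 to 11.18, and 5.86 for Tlr4 against 5.40 to 5.51. The same held for its mean over all 36 genes (6.52 against 6.12 to 6.20) and over the 16 general myeloid genes (7.40 against 6.92 to 6.99). In all, 82 groups of 5 arrays were examined, and chance alone marks about 1 in 20. The 7 marked values all belong to runner 1, and genes of the same cells are not independent of each other.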

How the results depend on the processing

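Across the 323 results for single members under alternatives that kept all arrays, 319 kept their direction and none passed (smallest adjusted p = 0.13). Msr1 turned to 0.035 with array weights and to 0.014 with centring, and Tlr7 to 0.010 with centring and 0.018 with repeated quantile normalization. With array weights, 5 genes of all passed as higher and 10 as lower, and at an unadjusted p under 0.05 the lower members numbered 22. The share of all genes lower at that p was not computed with array weights, so this count has nothing to stand beside. Without moderation 1 gene passed as lower. Leaving out each array in turn gave 0 to 44 genes passing as higher, 2 to 55 as lower, 0 members passing, 8 to 23 members lower at an unadjusted p under 0.05 and 30 to 34 members lower. The values of 44, 55 and 23 came without runner 1. The median of the members lay between -0.26 and -0.14. Under the same alternatives, 6 members took both signs. Laptm5 ranged from -0.17 to 0.024 (positive without runner 3), Cd163 from -0.13 to 0.020 (positive without runner 5 or control 4), F13a1 from -0.11 to 0.039 (positive without control 4) and Tmem119 from -0.091 to 0.023 (positive without runner 4). Tlr7 ranged from -0.096 to 0.10 (positive without runner 3, runner 5 or control 4) and Msr1 from -0.070 to 0.045 (positive without runner 2, control 3 or control 4). Without runner 1 and control 1, 134 genes passed as higher and 292 as lower, and 9 members passed. In that setting 25 members lay lower with an unadjusted p under 0.05 (9.07% of all genes). No sign was seen that the replicate numbers pair the samples, though correlations cannot exclude a pairing. Deviations of same-numbered arrays correlated at -0.25 to 0.277, and 1 of 5 runners correlated best with its own number. With the replicate block 2 genes passed, both lower, and at an unadjusted p under 0.05 the lower members numbered 12, with no share computed over all genes. The filter on dim genes left Gpr34 without a value.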
